A study of Canis lupus familiaris with 12 samples.

Results

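The miR-30 family was examined in the small RNA profiles of CHMm and CHMmTAM cells. CHMm was established from a metastatic lesion of a dog with a mammary gland tumor, and CHMmTAM is its derivative that grows in tamoxifen (TAM), a drug that blocks the estrogen receptor. The members were taken by name, as the rows cfa-miR-30a, cfa-miR-30b, cfa-miR-30c, cfa-miR-30d and cfa-miR-30e of the count table, and the rule that picks these rows uses no count. These are 5 of the 453 miRNAs listed, and all 5 passed the filter on low counts that left 284 miRNAs for testing.

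3 small RNA libraries of each line were compared. CHMmTAM had been raised through increasing TAM doses over 10 months to a final 10 μM, kept at that dose for 1 month and then grown for 1 week free of drug. According to the sample labels, both lines were kept in medium without phenol red and with 10% serum stripped of steroids. CHMmTAM is a single derived line, so resistance and any other difference gathered during its months of culture cannot be told apart. Nothing in the labels shows that the 3 libraries of a line came from separate cultures, so p-values measure only the spread between these libraries, which may be technical.

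The miR-30 miRNAs share the same seed, the stretch near the 5′ end through which a miRNA recognises its target mRNAs, and are therefore expected to recognise largely the same targets. The family is known for restraining the epithelial-to-mesenchymal transition, in which epithelial cells lose their contacts and become motile, and in breast tumor cells for limiting self-renewal. miR-30a, miR-30d and miR-30e are very alike along their whole length, and miR-30b and miR-30c form the other closely related group. How reads that match several members were assigned is not given in the sources used here, so the split of counts between close relatives is uncertain, and the sequences themselves were not analysed here.

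In the RefSeq annotation of the dog assembly UU_Cfam_GSD_1.0, the family has 6 precursor genes on 3 chromosomes. MIR30B and MIR30D are neighbours and lie within the span of the lncRNA LOC119864727, between the protein-coding genes ZFAT and KHDRBS3. MIR30C-1 and MIR30E are neighbours within the span of NFYC, which encodes a subunit of the transcription factor NF-Y. MIR30C-2 and MIR30A are neighbours within the span of the lncRNA LOC119874195, between OGFRL1 and RIMS1. The count table has 1 row for miR-30c, so counts from its 2 precursor genes could not be separated.

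The libraries held between 7512659 and 12482211 counts, and miR-21 alone took from 50.2% to 54.5% of them. Counts of libraries within a line varied beyond sampling noise, with a chi-square of 26.3 to 85.8 for each degree of freedom, so none was treated as a copy of another, which does not show that they are separate cultures. The 7 miRNAs fixed as epithelial markers were all detected, with 673 counts or more in every library, and summed to between 25124 and 26471 CPM (counts scaled to a common library total) in CHMm and between 22450 and 23736 CPM in CHMmTAM. The lists of other cell types were far lower, at 47.6 CPM or less in any library. The 6 blood markers summed to between 4.92 and 6.29 CPM in CHMm and between 11.9 and 15.0 CPM in CHMmTAM. The 3 muscle markers summed to between 5.85 and 6.97 CPM and between 27.6 and 28.8 CPM, in this order. The 4 mesenchymal markers went from between 39.7 and 47.6 CPM to between 23.8 and 28.8 CPM. The endothelial miR-126 had 0 counts in each CHMm library and at most 3 in a CHMmTAM library. The shifts of these other lists were small in CPM but, for the blood and muscle markers, large in proportion. Their part in the results below was not tested.

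miR-30a was the member that rose in CHMmTAM, by 1.31-fold, a call that was lost under upper-quartile scaling of the libraries. The other 4 members were at 0.90 to 0.94 times their CHMm level, and these differences did not pass the test, though some did under other scalings given further on. Values below are CPM scaled by the TMM factors of edgeR, and a miRNA was called when edgeR's quasi-likelihood test gave a Benjamini-Hochberg adjusted p (FDR, taken over all 284 miRNAs) below 0.05. By this rule 1 of the 5 members was called, while 44.0% of all tested miRNAs were. When a log2 fold change past 1 in either direction was also required, 0 members were called by edgeR, DESeq2 or limma-voom, against 11.3% of all tested miRNAs by edgeR. At an unadjusted p below 0.05, edgeR's quasi-likelihood test gave 3 of the 5 members, miR-30a, miR-30b and miR-30c, and 49.6% of all tested miRNAs.

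miR-30a, the product of the locus beside OGFRL1, had 463, 447 and 473 CPM in the 3 CHMm libraries. It had 555, 604 and 656 CPM in the 3 CHMmTAM libraries. All CHMmTAM libraries lay above all CHMm libraries. The mean rose from 461 ± 13.3 CPM to 605 ± 50.6 CPM (SD, n = 3 each), a log2 fold change of 0.39 (SE 0.07, edgeR quasi-likelihood FDR = 2.08e-07). This is a 1.31-fold rise with a 95% interval of 1.19 to 1.44. It is modest within the data set, since 30.6% of the tested miRNAs had a larger log2 fold change.

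miR-30d, by far the most abundant member, had 12810, 12420 and 12501 CPM in CHMm. In CHMmTAM it had 11553, 11486 and 12257 CPM. The CHMmTAM values were all below the CHMm values, but the highest of them came close to the lowest of CHMm. The means were 12577 ± 205 CPM and 11766 ± 427 CPM (SD, n = 3 each). The log2 fold change was -0.10 (SE 0.06, edgeR quasi-likelihood FDR = 0.219), with a 95% interval of -0.22 to 0.028.

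miR-30b, which lies next to miR-30d, had 2804, 2404 and 2527 CPM in CHMm. It had 2236, 2375 and 2373 CPM in CHMmTAM. The lines did not overlap, although the second CHMm library lay close to the highest CHMmTAM library. The log2 fold change was -0.15 (SE 0.07, edgeR quasi-likelihood FDR = 0.0568), with a 95% interval of -0.28 to -0.018 before adjustment for multiple testing.

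miR-30c, which either of its precursor genes can give, had 2482, 2242 and 2302 CPM in CHMm. In CHMmTAM it had 2150, 2022 and 2191 CPM. Again the lines did not overlap and were separated by less than the range within either line. The log2 fold change was -0.14 (SE 0.07, edgeR quasi-likelihood FDR = 0.0662), with a 95% interval of -0.27 to -0.013 before adjustment.

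miR-30e, the least abundant member, had 179, 187 and 202 CPM in CHMm. It had 175, 169 and 169 CPM in CHMmTAM. The lowest CHMm library lay just above the highest CHMmTAM library, and without TMM factors, as shares of all counts, their order was the opposite, at 174 and 179 CPM. The log2 fold change was -0.15 (SE 0.08, edgeR quasi-likelihood FDR = 0.115), with a 95% interval of -0.30 to 0.0047.

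For all 5 members the 3 CHMmTAM values lay on one side of the 3 CHMm values, 1 above and 4 below. This held for 51.8% of all tested miRNAs, and for 4 of the 5 members when shares of all counts were used. Counting error was small beside these differences for the abundant members and less so for miR-30e. The half-width of the 95% Wilson interval was at most 0.636% of the value for miR-30d and at most 3.37% for miR-30a. For miR-30e, with 1307 to 2235 counts per library, it reached 5.42%. These intervals cover counting error only.

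**Figure D1:**
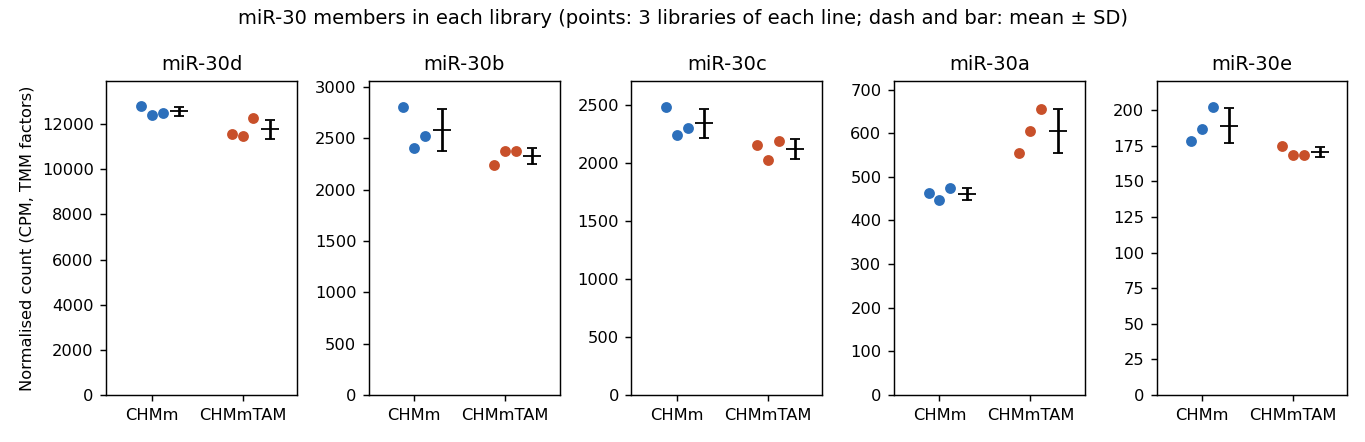
Normalised counts (CPM with TMM factors, vertical axes from 0, scaled separately for each member) of the miR-30 members in the 3 libraries of CHMm and the 3 of CHMmTAM, with mean ± SD beside the points. miR-30a is higher in every CHMmTAM library, between 555 and 656 CPM against 447 to 473 CPM, while the other members lie slightly lower.

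The order of abundance was the same in both lines, miR-30d first, followed by miR-30b, miR-30c, miR-30a and miR-30e. Counts are per mature miRNA and were not divided by length. miR-30d ranked 17 among the 284 tested miRNAs in either line. miR-30b ranked 31 in CHMm and 32 in CHMmTAM, and miR-30c 34 and 35. miR-30a ranked 67 in CHMm and 61 in CHMmTAM, and miR-30e 91 and 94. The close pair was miR-30b and miR-30c. Their CHMm values overlapped, but within each of the 6 libraries miR-30b had more counts, by a ratio from 1.04 to 1.17. All other neighbours in this order were further apart than their spread.

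**Figure D2:**
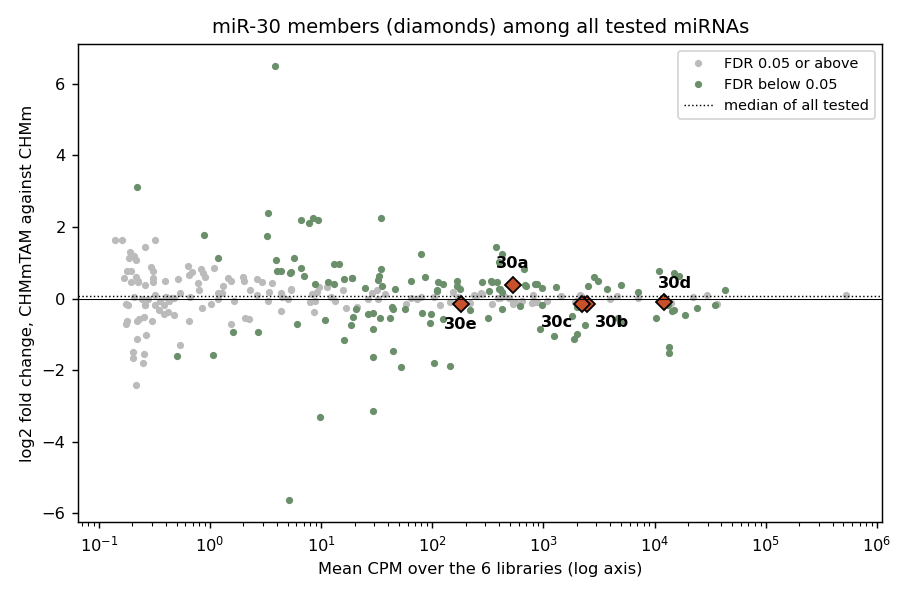
Log2 fold change of CHMmTAM against CHMm (vertical axis) and mean CPM over the 6 libraries (horizontal log axis) of the 284 tested miRNAs, with the miR-30 members as diamonds. The members span a mean of 180 to 12171 CPM, with miR-30a at 0.39 and the others between -0.15 and -0.10.

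The family as a whole accounted for 1.82% ± 0.02 of a CHMm library and 1.70% ± 0.03 of a CHMmTAM library (SD, n = 3 each). In the single libraries the share was 1.82%, 1.80% and 1.83% in CHMm and 1.71%, 1.66% and 1.73% in CHMmTAM, without overlap. Relative to the counts left after removing miR-21, the family took 3.70% ± 0.09 in CHMm and 3.69% ± 0.09 in CHMmTAM, and the lines overlapped. The slightly lower share of the family in CHMmTAM was therefore seen against all counts, and not against the counts other than those of miR-21. With TMM factors the family summed to 18148 ± 533 CPM in CHMm and 16990 ± 567 CPM in CHMmTAM. The lines did not overlap in this sum, though the nearest libraries were close, at 17700 and 17645 CPM. No test was applied to these sums.

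By locus, miR-30b and miR-30d summed to 15155 ± 410 CPM in CHMm and to 14094 ± 466 CPM in CHMmTAM (SD, n = 3 each), a difference in mean log2 CPM of -0.10 (standard error 0.04). miR-30c and miR-30e together had 2531 ± 118 CPM and 2292 ± 88.8 CPM, a difference of -0.14 (standard error 0.05). The miR-30a locus, counted by miR-30a alone, differed by 0.39 (standard error 0.07) in the other direction. When miR-30c was instead assigned to the locus of its second precursor gene, the sum of miR-30a and miR-30c differed by -0.040 (standard error 0.05) and the lines overlapped. In this sum miR-30c dominated, since the ratio of miR-30a to miR-30c was between 0.187 and 0.299 in the 6 libraries. The rise was thus seen in miR-30a and not in the miR-30c row, part of which may come from the neighbouring MIR30C-2.

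Within the family, miR-30a made up 2.54% ± 0.08 (SD, n = 3) of its counts in CHMm and 3.56% ± 0.20 in CHMmTAM. The libraries gave 2.47%, 2.53% and 2.63% in CHMm and 3.33%, 3.63% and 3.72% in CHMmTAM. The share of miR-30d was 69.3% ± 0.9 in CHMm and 69.2% ± 0.3 in CHMmTAM, and those of miR-30b, miR-30c and miR-30e also overlapped between the lines.

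Ratios between members within a library do not depend on how libraries are scaled to each other, so the 10 pairs of members were compared by their log2 ratio of counts. For the 4 pairs with miR-30a, the 3 CHMmTAM libraries lay above the 3 CHMm libraries in each case. All 4 pairs share the counts of miR-30a, so they are not separate observations. Among single miRNAs 51.8% separated the lines without overlap, and pairs of miRNAs outside the family were not examined. The difference of the mean log2 ratio was 0.48 (standard error 0.05) against miR-30d, and 0.53 against each of miR-30b, miR-30c and miR-30e, with standard errors of 0.08, 0.08 and 0.10. The ratio of miR-30a to miR-30d was 0.0362, 0.0360 and 0.0379 in CHMm and 0.0480, 0.0526 and 0.0535 in CHMmTAM. The ratio of miR-30a to miR-30e was 2.59, 2.40 and 2.34 in CHMm and 3.17, 3.58 and 3.88 in CHMmTAM. An exact two-sided permutation test gave p = 0.1 for each of these 4 pairs, the smallest that 3 against 3 libraries allow, and 0.25 after Benjamini-Hochberg adjustment over the 10 pairs.

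In the 6 pairs without miR-30a the lines overlapped. The 2 pairs that share a precursor locus were among them. The log2 ratio of miR-30d to miR-30b differed by 0.048 between the lines (standard error 0.06), and the 9 differences between a CHMmTAM and a CHMm library, whose range is an exact 90% interval, ran from -0.095 to 0.18 (exact permutation p = 0.7). The log2 ratio of miR-30c to miR-30e differed by 0.0030 (standard error 0.09), with differences from -0.21 to 0.19 (exact permutation p = 1). Members of different loci gave similar values, from -0.0024 for miR-30b to miR-30c up to 0.049 for miR-30d to miR-30e. The widest of the 6 intervals was that of miR-30b to miR-30e, from -0.30 to 0.17.

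**Figure D3:**
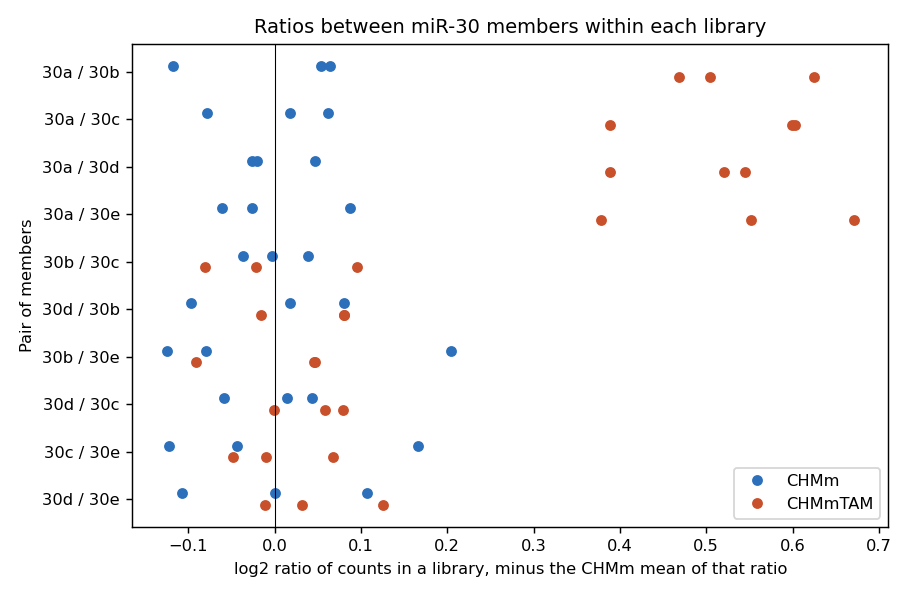
Log2 ratio of the counts of 2 miR-30 members within each library, minus the mean of that ratio in CHMm (horizontal axis), for the 10 pairs (vertical axis), with points for the 3 libraries of each line. The 4 ratios of miR-30a are higher in all CHMmTAM libraries, with mean differences from 0.48 to 0.53, and the other 6 overlap.

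To test miR-30a against its own family in the fit over all miRNAs, the libraries were scaled to the summed counts of the other 4 members, a choice made after the values were seen. The log2 fold change of miR-30a was then 0.50 (SE 0.08, edgeR quasi-likelihood FDR = 2.18e-06). This value is not independent of the ratios above, which use the same libraries and gave an exact permutation p = 0.1 for each pair with miR-30a. When each other member was scaled in the same way to the remaining 4, the log2 fold changes were -0.059 for miR-30b, -0.054 for miR-30c, -0.0064 for miR-30d and -0.053 for miR-30e, with an FDR of 0.521 or more.

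Against the rest of the miRNAs, the call of each member depended on the scaling. Across 5 scalings in edgeR, miR-30a had a log2 fold change between 0.15 and 0.39 and was called in 4 of the 5. The exception was upper-quartile scaling, with 0.15 (SE 0.07, edgeR quasi-likelihood FDR = 0.0804). miR-30b was called as lower in 4 of the 5 scalings, miR-30c and miR-30e in 3 and miR-30d in 2. Of all 284 tested miRNAs, 53 were called lower with TMM factors and 52 with library totals. The count was 73 with RLE factors, 67 without the 10 most abundant miRNAs in the scaling and 100 with upper-quartile factors. Called higher were 72, 69, 64, 62 and 41 miRNAs, in the same order. Under upper-quartile scaling the median over the 284 miRNAs went from 0.06 to -0.18. A change of scaling moves all miRNAs by about the same amount, so the distance from the median is nearly fixed by construction. In the 5 scalings that distance was 0.33 for miR-30a, -0.16 for miR-30d, -0.20 for miR-30c and -0.21 for miR-30b and miR-30e.

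**Figure D4:**
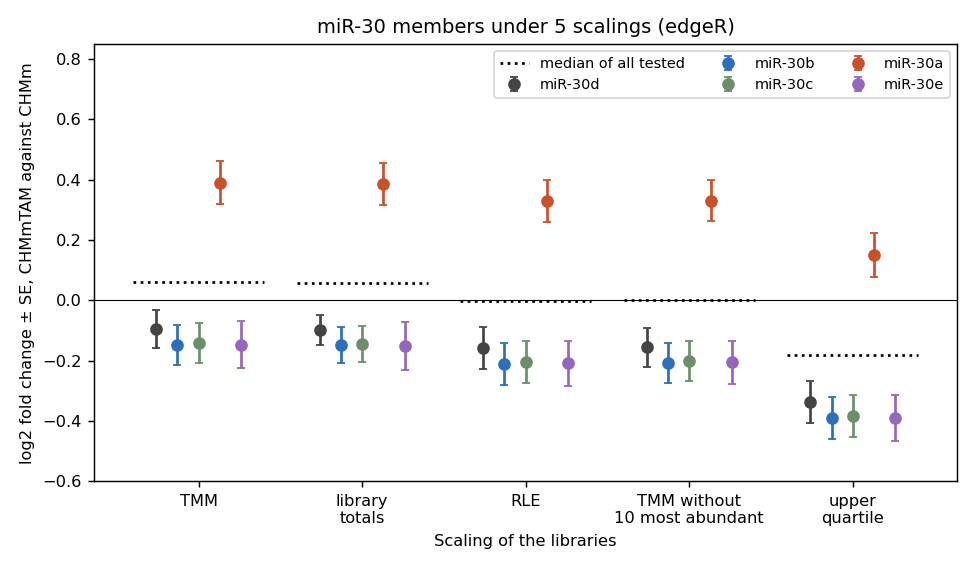
Log2 fold change ± standard error of the miR-30 members (vertical axis) from edgeR under 5 scalings of the libraries (horizontal axis), with the median over all tested miRNAs as dotted lines. The members move together with the median, as a change of scaling requires, with miR-30a above it and the other members below it.

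Other miRNA families whose members come from several loci are given for comparison, beside the 44.0% of all tested miRNAs that were called, 72 higher and 53 lower. Of the 8 let-7 miRNAs compared, let-7a, b, c, e, f, g, j and miR-98, 1 was called higher and 4 lower. Their log2 fold changes ran from -1.04 for let-7e to 0.23 for let-7g. The family member let-7d was not in this list and was not called, at 0.17 (edgeR quasi-likelihood FDR = 0.0692). For the miR-29 family 2 of 3 members were called, both lower, with a median of -0.17. Both miR-26 members were called lower, miR-26a at -0.54 and miR-26b at -0.53. The median of the 5 miR-30 members was -0.14, and that of all tested miRNAs 0.06. The range of log2 fold changes within a family was 0.54 for miR-30, against 1.27 for let-7, 0.31 for miR-29 and 0.0095 for miR-26. These ranges follow the number of members compared, 5, 8, 3 and 2 in this order. A range tends to widen with more members. The differences between families were not tested.

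Among the 7 epithelial markers, which are known like miR-30 to restrain the epithelial-to-mesenchymal transition, 3 rose and 2 fell, again beside 44.0% called among all tested miRNAs. miR-429 rose by a log2 fold change of 0.36, close to that of miR-30a, and miR-205 fell by 0.66 on the log2 scale. miR-200c and miR-141 were not called, at -0.062 and -0.092, and the median of the list was -0.062. 

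The miRNAs most like the summed family were sought among the 112 other miRNAs with a mean of at least 50 CPM, by the root mean square difference of their centred log2 CPM over the 6 libraries. They were miR-29a, with a difference of 0.044, miR-331, with 0.047, and miR-320, with 0.049. Their own log2 fold changes were -0.17, -0.15 and -0.064. This likeness is a description of 6 libraries in 2 lines. It reflects mostly miR-30d, which made up 69.3% of the family's counts in CHMm and 69.2% in CHMmTAM. It hardly reflects miR-30a, which made up 2.54% and 3.56% and differed in the other direction.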

How the data were processed

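Small RNA libraries of 3 CHMm and 3 CHMmTAM samples were analysed. The authors deposited the raw counts of reads for each mature canine miRNA, with a column for every library and no normalization applied. The submitters' processing notes list BWA, HISAT2 2.0.4 and the build CanFam3.1, with no role given, and other steps are not given in the sources used here. The samples labelled as RNA-seq were not analysed here. Libraries were assigned by their titles. A miRNA was kept at 10 or more counts over all libraries, and the lines were compared with edgeR 4.0.16 (R 4.3.3, TMM factors, quasi-likelihood test, Benjamini-Hochberg adjustment). The fit was also run on simulated counts with similar numbers of rises and falls, which does not test the choice of scaling. Standard errors come from the coefficient and its F statistic. Ratios were tested by exact permutation with SciPy 1.17.1 and NumPy 2.4.6. Alternatives used DESeq2 1.42.0 and limma 3.58.1. Gene neighbours come from RefSeq (UU_Cfam_GSD_1.0), without coordinates because the builds differ. The naming rule covers the members, their neighbours in mean abundance over the 6 libraries (left out of the text), the marker lists, 3 comparison families and the 3 most similar profiles. Members and lists were chosen with earlier results of these data known. Totals were 7512659 to 12482211 counts, at which 3 counts equal 0.24 to 0.399 CPM.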

Additional observations from a re-analysis of the deposited data

How the results depend on the processing

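The directions of the 5 members were kept in every alternative tried. miR-30a kept its call except under upper-quartile factors (0.15), and its log2 fold change ranged from 0.35 to 0.47 on leaving out each library in turn. With the replicate number as a block it was 0.39, and the block changed no call of a member. The deviations of same-numbered libraries correlated at 0.06, 0.46 and -0.31. With only 3 libraries of each line, these mixed values cannot decide whether the numbers pair the libraries.

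The other members gained a call as lower in several settings. For miR-30b the log2 fold change was -0.21 with RLE factors, -0.39 with upper-quartile factors, -0.15 with library totals, -0.21 without the 10 most abundant miRNAs in the scaling, -0.21 in DESeq2 and -0.16 with at least 10 counts in every library. Leaving out each library gave -0.18 to -0.083, called only without CHMm replicate 2 (-0.18), with -0.083 without CHMm replicate 1 and -0.096 without CHMmTAM replicate 1. For miR-30c the calls were at -0.20 with RLE factors, -0.38 with upper-quartile factors, -0.20 without the 10 most abundant, -0.20 in DESeq2 and -0.15 with at least 10 counts, and leaving out each library gave -0.16 to -0.099. For miR-30d they were at -0.16 with RLE factors, -0.34 with upper-quartile factors and -0.16 in DESeq2, and leaving out each library gave -0.11 to -0.060, the latter without CHMmTAM replicate 1. For miR-30e they were at -0.21 with RLE factors, -0.39 with upper-quartile factors, -0.21 without the 10 most abundant and -0.21 in DESeq2, and leaving out each library gave -0.19 to -0.099. The median of all miRNAs shifted down with RLE factors, upper-quartile factors, the scaling without the 10 most abundant and DESeq2, and the cause of these calls was not tested further. Upper-quartile factors also moved the share of higher calls from 57.6% to 29.1%, RLE factors to 46.7% and DESeq2 to 47.2%.

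The log2 difference of the family share was -0.0029 without the counts of miR-21, against -0.10 with them. The locus of miR-30a was at -0.040 with miR-30c included. All 10 differences between ratios moved by less than the spread between replicates with 1 count added or a library left out. The count of called miRNAs stayed between 109 and 141, and with the fold threshold between 24 and 34.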
